A study of Danio rerio with 11 samples.

Results

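Heat shock proteins and other molecular chaperones were described in intraspinal serotonergic neurons (ISNs) of zebrafish with an injured spinal cord. Members were the gene IDs whose symbol starts with hsp, dnaj, bag1 to bag6, cct2 to cct8, tcp1, hsf1, hsf2, stip1, ahsa1 or serpinh1. HSPG2 and HSPBAP1 were left out by the same rule, and TCP11L1, TCP11L2 and HSF2BP because they only share the letters of other genes. This gave 111 of the 39714 gene IDs in the deposited table. All fish carried Tg(tph2:GFP), a transgene that marks serotonergic neurons with a fluorescent protein driven by the regulatory sequence of a serotonin synthesis gene. The injury group held 6 libraries of sorted GFP+ cells from the injured segment of the cord, and the distal group held 5 libraries from segments away from the lesion, all collected 6 to 8 weeks after a complete transection. Injured and distal segments came from the same fish, so the distal group is not an uninjured control. Every library went through the same warm papain digestion, viability stain and sort before RNA was taken with a low-input kit, and no undissociated cord was analysed here, so levels present in the animal and levels reached during isolation cannot be told apart.

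Chaperones help proteins fold, keep unfolded chains from clumping and pass damaged ones on for degradation. Hsp70 binds short exposed stretches of a protein, DnaJ proteins bring it its clients and drive its ATP cycle, and nucleotide exchange factors of the Hsp110 and BAG families let the client go. Hsp90 acts later in folding, the ring-shaped chaperonin TRiC folds actin and tubulin, and separate chaperones serve the mitochondrion and the endoplasmic reticulum (ER). Constitutive forms are made in nearly all cells at all times, whereas inducible forms are switched on by the transcription factor Hsf1 when proteins unfold, as in heat. Neurons depend on these proteins at the synapse, where the DnaJ protein Dnajc5 guards vesicle release.

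The unit of the table is FPKM, fragments scaled for gene length and for the fragments that a library holds on genes. It does not correct for differences in which genes a library holds, and summed FPKM ran from 650308 in injury library 3 to 847919 in injury library 2. Comparisons of levels between libraries carry that limit. Depth was alike, from 14215980 to 19709661 fragments per library, but injury libraries 2 and 3 held only 5443 and 4530 genes with at least 1 FPKM, against 8448 to 16019 in the other 9. The serotonergic list (TPH2, SLC6A4, SLC18A2, DDC, FEV, GATA3 and mao) summed to between 3709 and 10987 FPKM in every library, with TPH2 never under 1462 FPKM. Oligodendrocyte markers reached 616 FPKM in sum, radial glial markers 295, microglial markers 147 and erythrocyte markers 21.3, while endothelial and muscle markers stayed at or under 5.03. The highest microglial sum was mostly apoeb, which reached 144 FPKM, and no other ID of that list passed 11.9 FPKM. In such bulk samples, fewer cells of a type and less RNA per cell cannot be told apart.

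Of the 111 members, 31 were above 0 in all 11 libraries, 72 in some of them and 8 in none. Members above 0 numbered 53 in injury library 2 and 47 in injury library 3, the libraries with few genes, and 65 to 94 in the others. A housekeeping subunit such as TCP1 was itself listed at 0 in injury library 3, so a value of 0 is given below only as listed. Mean levels passed 100 FPKM in 13 members and 10 FPKM in 63. All members together took from 1.71% to 7.36% of the fragments of a library.

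**Figure D1:**
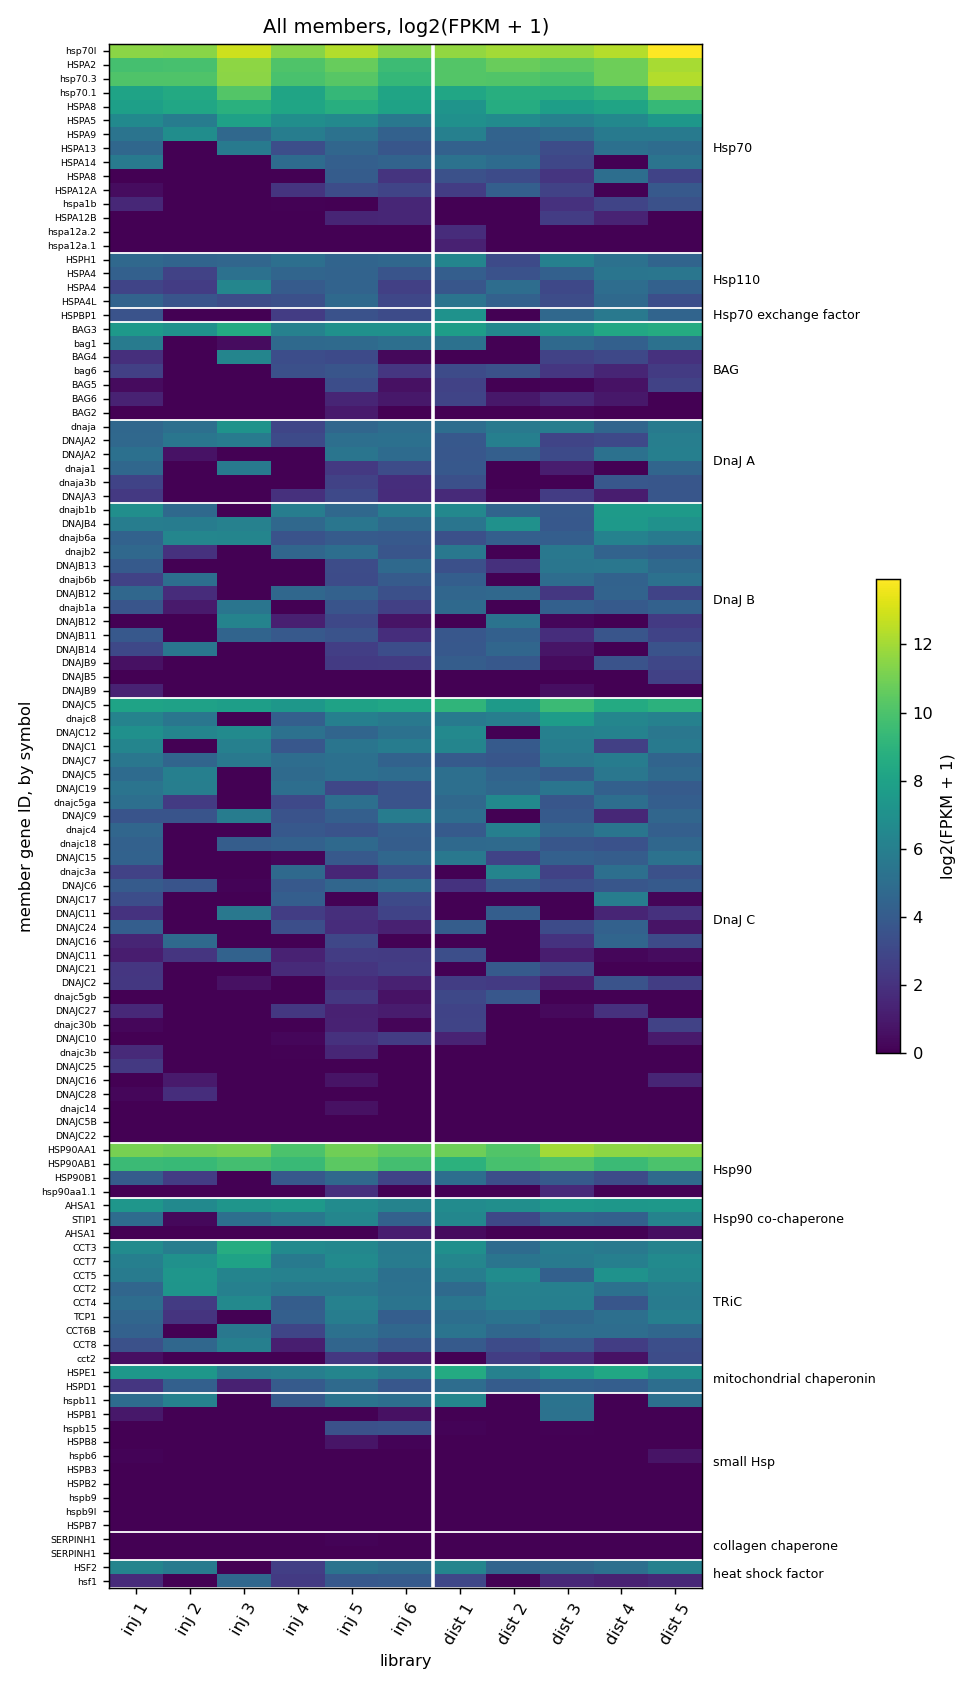
Level of each of the 111 members, as log2(FPKM + 1) by colour, in the 6 injury (inj) and 5 distal (dist) libraries, ordered by family and then by mean. The rows of hsp70l, HSPA2, hsp70.3, hsp70.1, HSP90AA1 and HSP90AB1 are bright in all 11 libraries, while other rows of these families are dark in places. Injury libraries 2 and 3 hold the most dark cells, with 53 and 47 members above 0.

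The most abundant member was hsp70l (ENSDARG00000055723), an inducible Hsp70 whose promoter is used in zebrafish to drive transgenes by heat shock. It measured 2868, 2785, 7547, 2708, 5174 and 2623 FPKM in injury libraries 1 to 6. In distal libraries 1 to 5 it measured 3275, 4143, 3828, 5395 and 15569 FPKM. The groups overlapped, and the highest value of each group was in injury library 3 and in distal library 5. By FPKM it ranked between the 3rd and the 25th of all IDs in every library, and it alone took from 0.604% of the fragments in injury library 6 (95% Wilson interval 0.600% to 0.608%) to 3.58% in distal library 5 (3.58% to 3.59%), where it held 639700 fragments. These intervals cover counting error only, since amplified fragments are not independent molecules.

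Another 3 Hsp70 genes were close behind. HSPA2 (ENSDARG00000092362), a symbol that in mammals belongs to an Hsp70 of the testis, ran from 749.9 to 3044 FPKM in the injury libraries with a median of 1007. Its distal values were 1169, 1691, 1426, 1824 and 4470 FPKM. Which of the zebrafish Hsp70 genes this ID stands for could not be settled from the names alone, and no ID carried the symbol hsp70.2. The inducible hsp70.3 (ENSDARG00000021924) ran from 626 to 2909 FPKM with a median of 1091 at the injury, and it measured 1168, 1116, 977.9, 1827 and 5131 FPKM in the distal libraries. Its inducible neighbour hsp70.1 (ENSDARG00000029688) ran from 267 to 1173 FPKM with a median of 318 at the injury, and its distal values were 299, 429.5, 421, 568 and 1910 FPKM. All 3 were highest in injury library 3 and distal library 5, like hsp70l, and no gene had groups that stood apart. In the RefSeq annotation of zebrafish (assembly GRCz12tu), hsp70.1, hsp70.2 and hsp70.3 lie next to each other with 0 genes between them, and hsp70l is on another chromosome. Hsp70 genes are a family of close paralogs that can share reads, and their likeness was not measured here, so the split of fragments among these IDs is uncertain. In sum, hsp70l, HSPA2, hsp70.3 and hsp70.1 took 0.932% to 5.91% of a library's fragments and 51.2% to 80.4% of all fragments on members.

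These genes went up and down together across libraries. On log2(FPKM + 1) over the 11 libraries, hsp70l followed hsp70.1 with Pearson r = 0.98 and Spearman rho = 0.92, with Benjamini-Hochberg adjusted permutation p of 4.5e-05 and 0.001215 over 9 relations. The relation to HSPA2 gave r = 0.97 and rho = 0.95, with adjusted permutation p of 4.5e-05 and 0.00018. For hsp70.3, r was 0.94 and rho 0.88, with adjusted permutation p of 0.00018 and 0.00183. The smallest raw p that 100000 permutations give is 1e-05, and these 3 relations were added after the values had been seen. Without distal library 5 and injury library 3, the farthest from the median, r was 0.94, 0.93 and 0.74 for hsp70.1, HSPA2 and hsp70.3. Within the 6 injury libraries alone r was 0.98, 0.97 and 0.89, in the same order, with exact adjusted p of 0.0458, 0.0458 and 0.025. There rho was 0.66, 0.77 and 0.94, with exact adjusted p of 0.311, 0.308 and 0.15, so the ranks did not pass. The 5 distal libraries are too few for a value of their own. The part of shared reads in these relations was not tested.

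The level of hsp70l relative to the other Hsp70 genes varied less than hsp70l itself. HSPA2 measured 0.286 to 0.408 of the hsp70l level, hsp70.3 0.239 to 0.394 and hsp70.1 0.0914 to 0.155, while hsp70l itself spanned a 5.94-fold range. The inducible Hsp70 named hspa1b (ENSDARG00000056210) was scarce by comparison, at no more than 1.91 FPKM in any injury library and no more than 9.93 in any distal library.

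**Figure D2:**
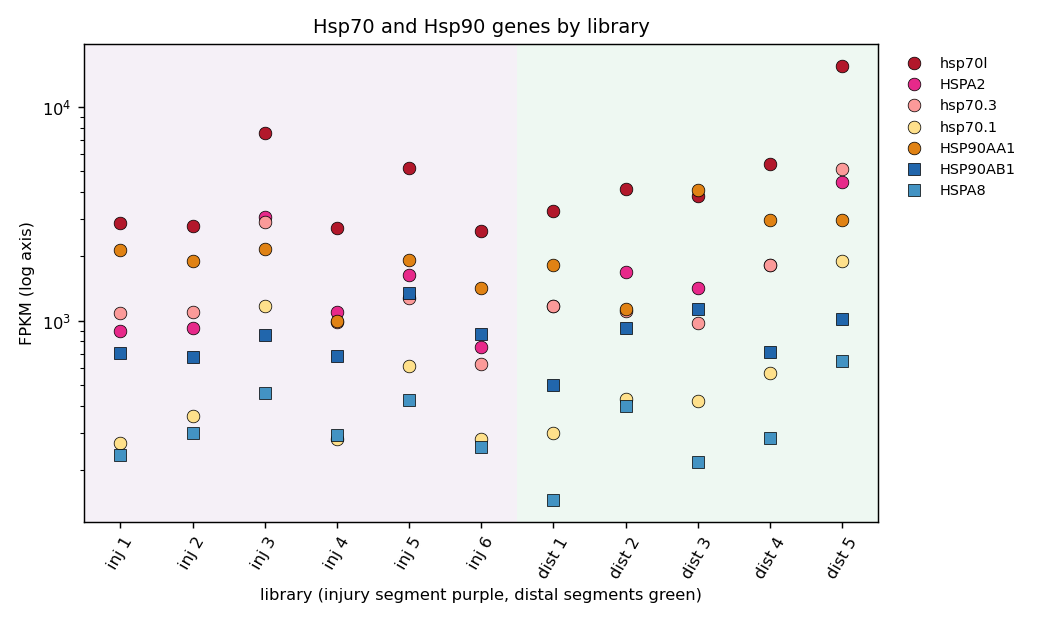
FPKM on a log axis in each injury (inj) and distal (dist) library. Circles are hsp70l, hsp70.3, hsp70.1 and HSP90AA1, all inducible, and HSPA2, which was assigned to neither kind. Squares are 2 constitutive genes (HSPA8 is ENSDARG00000068992). The 4 Hsp70 circles peak together in injury library 3 and in distal library 5, where hsp70l reached 15569 FPKM, and the squares span a narrower range.

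The constitutive Hsp70 (Hsc70), HSPA8 (ENSDARG00000068992), uncoats clathrin vesicles among other housekeeping tasks. It measured 235 to 460.4 FPKM in the injury libraries, with a median of 295, and 145, 399, 219, 283 and 649 FPKM in the distal libraries. It was again highest in distal library 5, over a range of 4.48-fold, and the distal median was 283 FPKM. A further ID with the same symbol (ENSDARG00000037403) was listed at 0 in injury libraries 1 to 4 and did not exceed 31.7 FPKM anywhere. The relation of HSPA8 (ENSDARG00000068992) to hsp70l had r = 0.76, adjusted permutation p = 0.0126, and rho = 0.58, adjusted permutation p = 0.119. It rested on injury library 3 and distal library 5, without which r was 0.40. Within the 6 injury libraries r was 0.93, with an exact adjusted p of 0.05, and rho was 0.66, with an exact adjusted p of 0.311.

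Among the cytosolic Hsp90 genes, the inducible HSP90AA1 (ENSDARG00000024746) was the second most abundant member by mean. It ran from 996.8 to 2174 FPKM with a median of 1913 at the injury and measured 1831, 1134, 4082, 2963 and 2954 FPKM in the distal libraries. Unlike the Hsp70 genes, it was highest in distal library 3. Its constitutive partner HSP90AB1 (ENSDARG00000029150) ran from 678 to 1353 FPKM with a median of 784 at the injury and measured 499, 921, 1139, 711 and 1018 FPKM in the distal libraries. Among the 31 members above 0 in every library, HSP90AB1 had the smallest spread on the log2 scale, an SD of 0.40 over the 11 libraries, and AHSA1 (ENSDARG00000100317), which speeds the ATP cycle of Hsp90, followed with an SD of 0.44. AHSA1 had a range of 2.43-fold, from 74.8 to 182 FPKM. The other inducible Hsp90, hsp90aa1.1 (ENSDARG00000010478), known in zebrafish for muscle fibre assembly, was listed at 2.84 FPKM in injury library 5, at 2.13 in distal library 3 and at 0 elsewhere. STIP1, which hands clients from Hsp70 to Hsp90, swung from 0.237 FPKM in injury library 2 to 84.6 in distal library 1. Neither Hsp90 gene tracked hsp70l closely, with r = 0.47 (adjusted permutation p = 0.217) for HSP90AA1 and r = 0.43 (adjusted permutation p = 0.244) for HSP90AB1. The rank correlation of hsp70l with HSP90AA1 was higher, rho = 0.63, adjusted permutation p = 0.0977.

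Set side by side in each library, inducible transcripts exceeded constitutive ones everywhere. The list of inducible members held 14 IDs, among them the Hsp70 genes hsp70l, hsp70.1, hsp70.3 and hspa1b, both inducible Hsp90 genes, dnajb1a, dnajb1b, BAG3 and small Hsps. The list of constitutive members held 17 IDs, among them HSPA8, HSP90AB1, the TRiC subunits other than CCT6B, and the mitochondrial chaperones. Summed FPKM was 5109 to 26207 for the inducible list and 1467 to 2552 for the constitutive list. The inducible sum was thus 3.34 times the constitutive sum in injury library 6, the lowest, and 10.3 times in distal library 5, the highest. The inducible sum varied 5.13-fold across libraries and the constitutive sum 1.74-fold. Because hsp70l alone gave 40.0% to 59.8% of the inducible sum, these totals describe mainly a few genes.

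For single pairs of genes, hsp70l was 9.30 to 24.0 times as high as HSPA8 (ENSDARG00000068992), and HSP90AA1 was 1.23 to 4.17 times as high as HSP90AB1. On the log2 scale the hsp70l to HSPA8 ratio had a mean ± SD of 3.51 ± 0.31 over the 6 injury libraries and of 4.17 ± 0.48 over the 5 distal libraries, and a two-sided exact permutation p of 0.0325. The difference of -0.66 did not pass after adjustment over the 2 ratios tested (exact permutation, adjusted p = 0.0649), and both ratios were chosen after their values had been seen. With single libraries left out this difference ran from -0.86 to -0.56, the latter without distal library 5, where the exact permutation p was 0.081. The HSP90AA1 to HSP90AB1 ratio had means ± SD of 1.03 ± 0.50 over the injury and 1.52 ± 0.71 over the distal libraries, a difference of -0.49 with an exact permutation p of 0.206. Leaving out each library in turn gave differences from -0.80 to -0.36 and unadjusted exact p from 0.0286 to 0.329. The lowest p came without distal library 2, which had the lowest ratio of all, and is no support for a difference. The smallest p that 6 against 5 libraries allow is 0.002165.

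**Figure D3:**
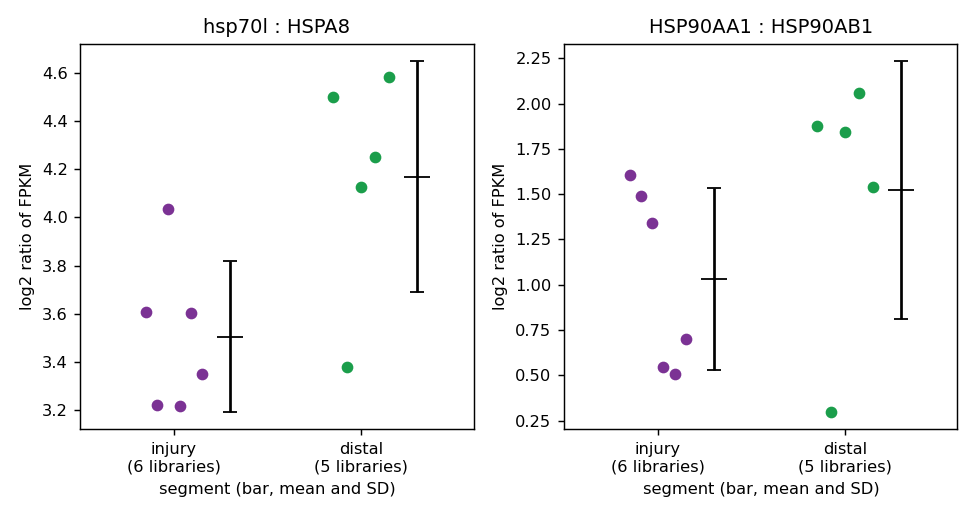
Log2 ratio of FPKM within each library for hsp70l over HSPA8 (left; ENSDARG00000068992) and HSP90AA1 over HSP90AB1 (right), with 1 point per library and bars at the mean ± SD of 6 injury and 5 distal libraries. In the left panel 4 of the 5 distal points lie above all injury points, and in both panels the lowest distal point is distal library 2. The axes do not start at 0.

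The remaining inducible members were less abundant or patchy. BAG3 (ENSDARG00000039486), a stress-induced exchange factor that steers clients to autophagy, ran from 69.8 to 369 FPKM with a median of 128 at the injury and measured 213, 87.6, 147, 328 and 385 FPKM in the distal libraries. It too peaked in injury library 3 and distal library 5, and its groups overlapped. The inducible DnaJ partner of Hsp70, dnajb1b (ENSDARG00000041394), did not follow them. It was listed at 119, 26.5, 0, 59.3, 25.5 and 56.3 FPKM in injury libraries 1 to 6 and at 88.8, 21.4, 14.03, 192 and 195 in distal libraries 1 to 5. Its value was 0 in injury library 3, where hsp70l was at its highest for that group, and at its highest in distal library 5. Across the 11 libraries its relation to hsp70l had r = -0.06 and rho = 0.01, with adjusted permutation p of 0.878 and 0.9895, and without injury library 3 r was 0.40. Its paralog dnajb1a was at 41.4 FPKM in injury library 3, at 0 in injury library 4 and distal library 2, and between 0.987 and 26.0 elsewhere.

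Small Hsps, which hold unfolded proteins until Hsp70 can take them, were mostly at or near 0. Of 10 members, 5 were listed at 0 in every library (HSPB2, HSPB3, HSPB7, hspb9 and hspb9l), and HSPB8 and hspb6 never passed 0.723 FPKM. Inducible HSPB1 stood at 37.4 FPKM in distal library 3 and at no more than 0.841 in any other. Only hspb11 was widely present, at 14.2 to 81.5 FPKM in 8 libraries and at 0 in injury library 3 and distal libraries 2 and 4. This gene was placed in the family and in the inducible list by its symbol alone. Whether it acts as a small Hsp or is induced by stress was not tested. The collagen chaperone Hsp47, encoded by SERPINH1 and typical of cells that secrete collagen, was at 0 for both IDs apart from 0.0862 FPKM in injury library 5. Of the regulators, HSF2 measured up to 80.8 FPKM and was listed at 0 in injury library 3 alone. The master regulator hsf1 (ENSDARG00000008818) was listed at 2.30, 0, 24.6, 4.103, 13.5 and 14.2 FPKM in the injury libraries and at 6.87, 0, 1.94, 1.40 and 1.92 in the distal libraries.

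Of the 9 IDs for TRiC, 8 had a mean of at least 10 FPKM. CCT3 was the highest by mean, from 51.4 to 394 FPKM at the injury (median 94.7) and at 122, 28.3, 57.1, 49.2 and 72.8 FPKM in the distal libraries. Next came CCT7 (mean 91.7 FPKM), CCT5 (79.0), CCT2 (57.1), CCT4 (45.1), TCP1 (28.2), CCT6B (25.5) and CCT8 (16.8), while a further cct2 ID stood at 2.03. The working chaperonin holds every subunit in equal number as protein, which was not measured here. At the RNA level, the lowest and the highest of these 8 subunits within a library differed by 4.06-fold at least, and by 82.0-fold in injury library 4. CCT8 was the lowest in 9 of the 11 libraries. In the other libraries, injury library 2 and injury library 3, CCT6B and TCP1 were listed at 0, and the highest subunit reached 156 and 394 FPKM. These are the libraries that held the fewest genes.

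**Figure D4:**
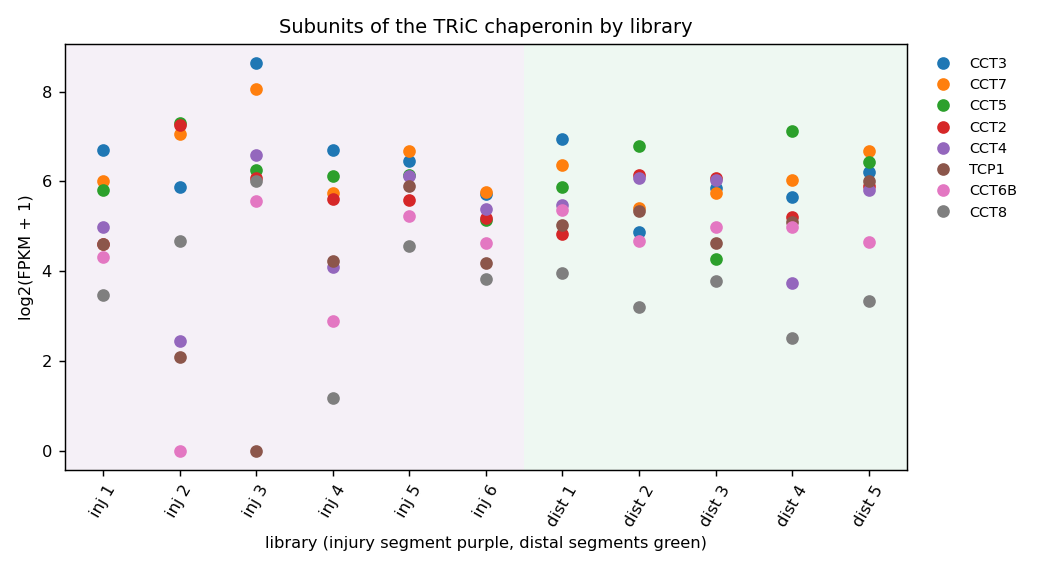
Log2(FPKM + 1) of 8 TRiC subunits in each injury (inj) and distal (dist) library, 1 colour per subunit. CCT8 lies at the bottom in 9 libraries, and the points at 0 are CCT6B in injury library 2 and TCP1 in injury library 3.

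The mitochondrial chaperones came at unequal levels. HSPE1, the Hsp10 lid of the mitochondrial chaperonin, ran from 53.0 to 162 FPKM with a median of 70.23 at the injury and measured 371, 68.3, 175, 309 and 125 FPKM in the distal libraries. HSPD1, the Hsp60 ring that it caps, ran from 1.46 to 26.8 FPKM with a median of 13.9 at the injury and measured 31.0, 15.6, 19.1, 17.0 and 32.1 FPKM in the distal libraries. These genes are adjacent in the RefSeq annotation, with 0 genes between them, and HSPE1 was above HSPD1 in all 11 libraries. The mitochondrial Hsp70, HSPA9, averaged 46.5 FPKM and ranged from 19.1 to 114.

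Among the 10 ER members, HSPA5 (ENSDARG00000103846), the ER Hsp70 known as BiP, was the most abundant and the sole member above 0 in all libraries. It ran from 46.4 to 250.4 FPKM with a median of 94.1 at the injury and measured 126, 105, 65.5, 89.7 and 164 FPKM in the distal libraries. The ER Hsp90, HSP90B1, reached only 31.6 FPKM. Of the DnaJ partners of BiP, DNAJC1 was the highest, with a mean of 42.4 FPKM, a range up to 79.6 and a listed 0 in injury library 2. Means were 10.3 FPKM for DNAJB11, 15.2 for dnajc3a, 0.949 for DNAJC10 and 0.359 for dnajc3b, a gene listed at 0 in all 5 distal libraries. HSPA13, a further Hsp70 of this compartment, averaged 21.1 FPKM and was at 0 in injury library 2. HSPA5 and hsp70l had r = 0.65 (adjusted permutation p = 0.0599) and rho = 0.54 (adjusted permutation p = 0.143), with r = 0.27 once distal library 5 and injury library 3 were left out.

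DnaJ proteins made up 52 of the members, and their most abundant gene is a synaptic one. DNAJC5 (ENSDARG00000042948), the cysteine string protein of synaptic vesicles, ran from 167 to 305 FPKM with a median of 253 at the injury and measured 560.4, 191, 722, 364 and 490 FPKM in the distal libraries. It, DNAJC12, DNAJC6 and DNAJB4, and the Hsp110, HSPBP1 and BAG genes named next other than BAG3, fall outside the rule for named genes and were chosen after their values had been seen. For DNAJC5, 4 of the distal libraries exceeded every injury library and distal library 2 did not. Its log2 difference, injury minus distal, was -0.82 ± 0.47 (SE; limma, adjusted p = 0.838). DNAJC12, which in humans assists the enzymes that hydroxylate aromatic amino acids, tryptophan hydroxylase among them, ran from 22.4 to 128 FPKM at the injury and measured 91.6, 0, 67.0, 70.24 and 44.9 in the distal libraries. DNAJC6 (auxilin), which recruits Hsc70 to clathrin coats, averaged 13.2 FPKM and was at 0.104 in injury library 3. DNAJB4, a relative of dnajb1b, was above 0 throughout, at 25.1 to 69.0 FPKM at the injury and at 40.9, 133, 13.3, 183 and 133 in the distal libraries. Both IDs of the constitutive DNAJA2 were present, with means of 31.6 and 22.2 FPKM, and the second (ENSDARG00000104066) was listed at 0 in injury libraries 3 and 4.

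Exchange factors, which release ADP and the client from Hsp70, were unevenly detected. The Hsp110 exchange factors HSPH1, HSPA4 (2 IDs) and HSPA4L were above 0 in every library, with means of 16.9 to 32.6 FPKM. HSPH1 held between 21.3 and 33.2 FPKM in the injury libraries but measured 78.9, 7.80, 65.2, 35.8 and 21.8 in the distal ones. HSPBP1, which opens the Hsp70 nucleotide pocket, was at no more than 10.9 FPKM in any injury library and reached 134 in distal library 1, with 0 listed in injury libraries 2 and 3 and distal library 2. Among the BAG proteins other than BAG3, bag1 averaged 23.5 FPKM and BAG4 10.52, the latter mostly through 80.9 FPKM in injury library 3, and BAG2 exceeded 0 in 2 libraries only.

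The contrast of the study sets ISNs that gather at the lesion against those elsewhere in the same cord. In the limma fit over all 24178 genes tested, 0 members passed an adjusted p under 0.05, and across all genes tested 0% did. Without the adjustment, 649 of all genes and 5 members passed. A total of 99 members entered the fit, and of the 12 that did not, 8 were at 0 throughout and HSPB8, hspb6, dnajc14 and SERPINH1 (ENSDARG00000019949) had a mean under 0.1 FPKM. At an unadjusted p under 0.05, 0 members were higher at the injury, beside 0.658% of all genes, and 5 of the 99 were lower, beside 2.03% (2.68% in either direction). No member had groups that did not overlap, beside 0.0662% of all genes for higher and 0.186% for lower values at the injury. The SE of the 99 log2 differences ran from 0.25 to 1.21, with a median of 0.88, so a p that missed the threshold does not show that the groups were alike.

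None of the most abundant members differed beyond the spread between libraries in this fit. On the scale of log2(FPKM + 1), with the distal mean subtracted from the injury mean, hsp70l differed by -0.57 ± 0.32 (SE; limma, adjusted p = 0.838), and without distal library 5 by -0.18. A weighted fit on recovered fragments (voom) gave -0.95 ± 0.13 with an adjusted p of 0.00116 for hsp70l, the sole member it called. In that fit the residual SD, which is near 1 where the weights match the spread, was 248 for hsp70l beside a median of 0.995 for the members. The weights thus did not match the spread of this gene. That SD enters the SE, so it does not by itself account for the small p, and the weights of single libraries are not given here. HSPA2 differed by -0.61 ± 0.37, hsp70.3 by -0.47 ± 0.40 and hsp70.1 by -0.44 ± 0.50, and without distal library 5 by -0.30, -0.06 and -0.0035. Without injury library 3, hsp70.3 and hsp70.1 differed by -0.73 and -0.74. HSP90AA1 differed by -0.48 ± 0.31, and by -0.28 without distal library 3 and -0.74 without distal library 2. HSP90AB1 differed by 0.01 ± 0.35, a value whose sign changed with the scaling. The 5 members with the smallest p among those higher at the injury were hspb15, DNAJC9, dnajc3b, DNAJC11 (ENSDARG00000102696) and hsf1, and their p-values in limma ran from 0.120 to 0.2005. The value of hsf1 was 1.29 ± 0.98, with the largest levels in injury libraries 3, 5 and 6. For hspb15 it rested on injury libraries 5 and 6, at 10.2 and 10.9 FPKM, beside at most 0.110 FPKM elsewhere. DNAJC9, a partner of histone chaperones, reached 55.7 and 55.8 FPKM in injury libraries 3 and 6.

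The 5 members with an unadjusted p under 0.05 were all of low or middling level and all lower at the injury. The lesser HSPA8 ID (ENSDARG00000037403) was listed at 0, 0, 0, 0, 15.6 and 3.24 FPKM in the injury libraries and at 9.99, 8.15, 3.45, 31.7 and 5.89 in the distal ones, a log2 difference of -2.30 ± 0.98 (SE; limma, adjusted p = 0.838). DNAJB9 (ENSDARG00000052072), an ER DnaJ protein that rises with ER stress, was at 0.541, 0, 0, 0, 4.16 and 4.34 FPKM and at 16.0, 13.4, 0.314, 10.96 and 6.71, a difference of -2.07 ± 0.95 (limma, adjusted p = 0.838). In both genes the distal libraries were above 0 throughout, and injury libraries 2 and 3 were among those listed at 0. DNAJC15, a mitochondrial DnaJ protein, differed by -2.21 ± 1.05, dnajc4 by -2.14 ± 0.99 and DNAJB13, known from cilia and flagella, by -2.22 ± 1.07. Their unadjusted limma p-values ran from 0.0260 (HSPA8) to 0.0482 (DNAJB13). Injury libraries 2 and 3, which held few genes, were at 0 for all 5 of these members. With both left out, 1 of 98 members rather than 5 of 99 was lower at an unadjusted limma p under 0.05, and that gene was HSPA2. The number fell among all genes too, from 490 of 24178 to 217 of 24504. Leaving out single libraries moved the number of members between 0 (without distal library 4) and 9 (without injury library 5), so it depended on single libraries. The share over all genes in those fits is not given here.

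More members leaned lower than higher at the injury. Of the 99 tested, 68 had a lower mean of log2(FPKM + 1) at the injury, or 68.7%, beside 51.8% of all genes tested. The median difference was -0.44 beside -0.04. Counts of lower genes below are on this log2 scale too. Some of these genes had a higher mean FPKM at the injury, such as HSPA4 (ENSDARG00000018989), at 22.3 beside 19.9 in the distal libraries. Among the oligodendrocyte markers, the myelin gene mbpa was also lower, with 0 to 234 FPKM in the injury and 129 to 531 in the distal libraries (difference -4.54 ± 1.04, limma, adjusted p = 0.838). The part of these cells in the lean of the members was not tested. The inducible list had 10 of 11 tested members lower with a median of -0.48, and the constitutive list 8 of 17 with a median of 0.01. Single libraries moved these medians. The inducible median was -0.24 without distal library 5, -0.74 without distal library 2, -0.73 without injury library 3 and -0.32 without injury library 4, and the constitutive median was 0.09 without distal library 5 and -0.34 without distal library 3. Without injury libraries 2 and 3 they were -0.74 and -0.28. The ER list had 7 of 10 lower with a median of -0.34. By family, 13 of 15 Hsp70 IDs, 4 of 4 Hsp110 IDs and 11 of 14 DnaJ B IDs were lower, beside 4 of 9 TRiC IDs. In DnaJ C, the largest family, 17 of 29 tested IDs were lower, and among the small Hsps 1 of 3. These counts are descriptions, since members are not independent of each other, and hsp70l, HSPA2, hsp70.3, hsp70.1 and BAG3 all peaked in distal library 5. Without injury libraries 2 and 3, 61 of 98 members were lower, with a median of -0.30, while the median of all genes moved to 0.23 and the share of lower genes to 38.8%. Among genes above 0 in every library, 19 of 31 members (61.3%) were lower with a median of -0.41, beside 51.3% and a median of -0.02 for all 2287 such genes.

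**Figure D5:**
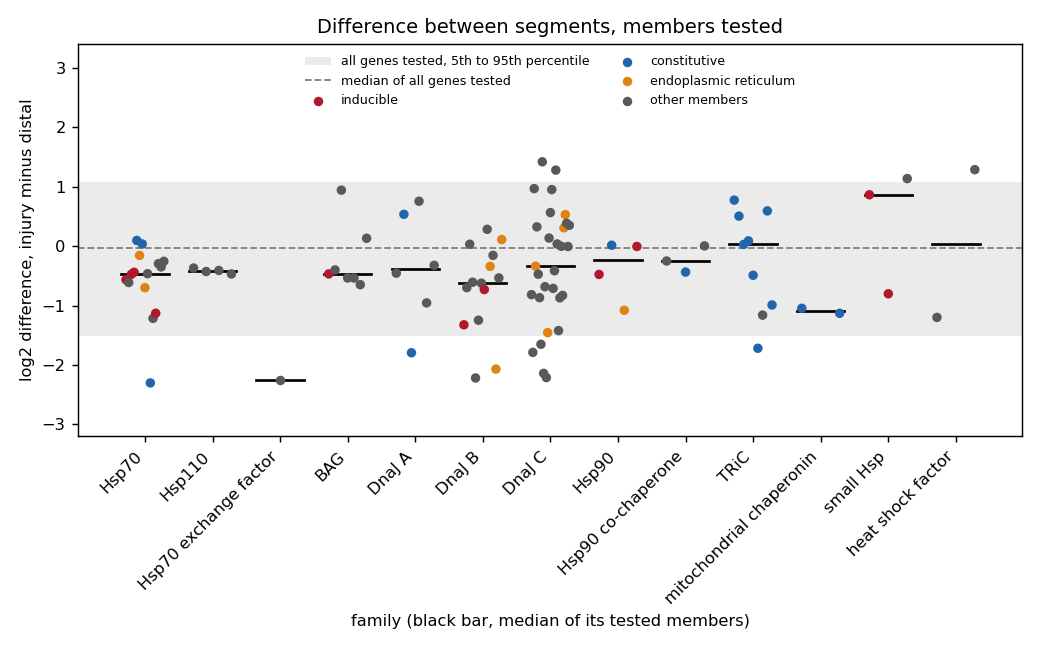
Log2 difference, injury minus distal, on log2(FPKM + 1), of the 99 tested members by family, coloured by list, with black bars at each family's median, a grey band from the 5th to the 95th percentile of all genes tested (-1.51 to 1.08) and a dashed line at their median. Most Hsp70, Hsp110 and DnaJ B points lie under the dashed line inside the band, and TRiC points lie on both sides of it.

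A further list of 42 IDs that the symbol rule does not reach held other chaperones and stress-response genes. Its chaperones included ER calreticulins, protein disulphide isomerases and the Hsp90 co-chaperones PTGES3, FKBP4 and FKBP5. The list also held transcription factors such as XBP1, atf4a, atf4b, atf6 and DDIT3, so its counts do not describe chaperones alone. Of the 42 IDs, 37 were tested and 0 passed an unadjusted p under 0.05 in either direction in limma or in voom. The median difference of those tested was -0.14 in limma. CALR, a calcium-binding lectin chaperone of the ER, was at 42.2 to 185 FPKM in the injury and 50.7 to 113 in the distal libraries. Immediate early genes, which respond rapidly to many stimuli, were also abundant, with JUNB (ENSDARG00000104773) at 1168 to 4322 FPKM. Of 19 tested, 1 was higher and 3 were lower at the injury at an unadjusted p under 0.05, beside 0.658% and 2.03% of all genes, and 0 passed the adjusted threshold in limma or in voom. In all, 16 of the 19 had a lower mean of log2(FPKM + 1) at the injury, or 84.2%, with a median difference of -0.29. For all genes tested these values were 51.8% and -0.04. The count of 16 is a description only, and no test was run on it.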

How the data were processed

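RNA of sorted ISNs was sequenced in 11 libraries, 6 from the injury segment and 5 from distal segments. The authors mapped paired-end reads with HISAT2 (version 2.0.5), counted them with HTSeq (version 0.9.1) on danRer11, as the submitters' processing notes name them, and deposited FPKM per gene, with no filter or further scaling stated. The authors' DESeq test was not refitted. Since each value is whole fragments over a length and a total, library totals and fragments were recovered from the values of all 29512 IDs above 0. Symbols came from a reference of gene names (29201 IDs matched).

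Groups were compared with limma 3.58.1 (R 4.3.3; trended prior, two-sided) on log2(FPKM + 1) for genes averaging 0.1 FPKM or more, and p-values were adjusted by Benjamini-Hochberg over all genes. A log2 difference on this scale understates the change of low genes. Named genes were the members of the inducible, constitutive and ER lists, the 5 highest by mean and the 5 with the smallest p in each direction. Members and lists were chosen with earlier results of these data known. Alternatives were pseudocount, filter, scaling, prior, voom, replicate number as a block and leaving out libraries. Scripts were tested on simulated data. Nothing states that libraries of a group came from separate fish or pools, so p-values measure only the spread between these libraries. No sequences are shown, since none were used here.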

Additional observations from a re-analysis of the deposited data

Results flagged for a closer look

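Of 44 groups of values examined for 1 library far from the rest, 2 stood out, and chance gives about 1 in 20. HSP90AB1 in injury library 5, at 1353 FPKM, had a gap to the next value of 0.637 of the range of its group on the log2 scale. The value of dnajb1b in injury library 3, listed at 0, had a gap of 0.685, in the library with the fewest genes detected, where hsp70l was at 7547 FPKM.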

How the results depend on the processing

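No adjusted call appeared among the members in limma, whichever library was left out. The number of all genes past the adjusted threshold was 2 without a trend in the prior and 5 with voom, which also called 1 member (hsp70l) and put 1135 genes rather than 649 under an unadjusted p of 0.05. Members higher at an unadjusted p under 0.05 numbered 1 after quantile normalization (dnajc3b), 1 with voom (dnajc3b) and 1 without injury libraries 2 and 3 (hspb15), a setting added after seeing the data. In that last setting 883 of all 24504 genes were higher and 217 lower, beside 1 of 98 members in each direction. For the quantile, voom, block and single-library settings, counts over all genes by direction are not given here. Members lower at that threshold numbered from 0 to 9 when single libraries were left out, namely 0 without distal library 4, 1 without injury library 2 or 4, 2 without distal library 5, 3 without injury library 3 or distal library 3, 8 without distal library 2 and 9 without injury library 5. Without injury libraries 2 and 3 the number was 1. Values near 0 changed sign: HSP90AB1 was -0.0016 after median-ratio scaling, -0.0364 with voom and -0.17 to 0.13 with single libraries left out. HSPA8 (ENSDARG00000068992) ran from -0.16 to 0.38 with single libraries left out and was -0.0152 without injury libraries 2 and 3, and HSPA5 ran from -0.44 to 0.04. The relation of hsp70l to dnajb1b ran from -0.58 to 0.40 and was 0.36 without injury libraries 2 and 3. That to HSPA8 in the 6 injury libraries alone was 0.93, and r with single libraries left out ran from 0.58 to 0.84. The relation to the number of genes detected was 0.06, and became -0.0181 after median-ratio scaling, -0.27 in the injury libraries and -0.28 to 0.30 with single libraries left out. The difference in the hsp70l to HSPA8 ratio ran from -0.86 to -0.56, and that in the HSP90AA1 to HSP90AB1 ratio from -0.80 to -0.36. Same-numbered libraries of the groups did not deviate together (correlations -0.05 to 0.13), so the numbers were not taken as pairs. With the replicate number as a block, 5 members were lower and 0 higher at an unadjusted p under 0.05, and HSPA5 changed sign to 0.0443. The block fit held only libraries whose number occurs in both groups, so it left out injury library 6. For hsp70l the difference was -0.4737 in the block fit and also in the fit without injury library 6 and without a block. The causes were not tested. With the mean filter at 1 FPKM dnajc3b could not be fitted.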
